A study of Mus musculus with 15 samples.

Results

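Transcripts of 38 genes of DNA replication and cell division were followed in group 3 and group 2 innate lymphoid cells (ILC3 and ILC2), lymphocytes without rearranged antigen receptors that reside in the gut wall. The genes were listed for their known roles in replication and mitosis, with earlier results of these data known. They were matched by symbol to the Entrez identifiers of the tables, and all 38 were found among the 22797 genes of the count tables. By role, 18 belonged to replication (entry into S phase, origin licensing and nucleotide supply), 17 to mitosis (cyclin B and its kinase, spindle, kinetochore and checkpoint), and 3, Ccna2, Stmn1 and Hmgb2, were set in neither role. PolyA RNA was sequenced from cells sorted from the small intestine of female mice at zeitgeber times 4, 10, 16 and 23 (ZT4 to ZT23, in hours). ILC3 had 2 libraries at each time, 8 in all. ILC2 had 2 libraries at ZT4, ZT10 and ZT23 and 1 at ZT16, 7 in all. Per the labels, cells of 6 mice were pooled at each time before the sort, ILC3 formed batch 2 and ILC2 batch 1, so a cell type difference cannot be told apart from a batch difference. The labels call the replicates biological, but whether replicate libraries stem from different pools is not stated. The p-values measure the spread between these libraries, which may be technical.

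Before a cell copies its DNA, the MCM helicase, a ring of Mcm2 to Mcm7, is loaded on origins by Cdc6 and Cdt1, and E2F transcription factors switch on the genes of this step together with those that make deoxynucleotides. Later, cyclin B with Cdk1 drives entry into mitosis, Aurora and Polo kinases build the spindle, and the anaphase-promoting complex with Cdc20 and Ube2c ends it. Many genes of this later phase are controlled through a promoter element called CHR, often near CCAAT boxes bound by NF-Y. Innate lymphoid cells of adult tissues are long-lived residents that renew slowly and can divide on cytokine stimulation.

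Promoter sequence played no part in the choice of genes. RefSeq promoter windows (GRCm38.p6, the build that mm10 names) were found for 15 replication genes (17 windows), 15 mitosis genes (15 windows) and Hmgb2. No window was in the table for Ccne2, Gins2, Mcm4, Aurkb, Tpx2, Ccna2 and Stmn1. The 250 bases before each start were searched on both strands for E2F letters (TTTCGCGC, TTTGGCGC, TTTCCCGC or TTTGCCGC), CHR letters (TTTGAA or TTCGAA) and CCAAT. E2F letters stood in 29.4% of replication windows (5, of Cdc6, Mcm5, Mcm6, Mcm7 and Uhrf1), in 6.67% of mitosis windows (1, of Cdk1) and in 1.86% of all 32851 windows of the table. CHR letters within 100 bases of the start stood in 5.88% of replication windows, 40% of mitosis windows (6, of Cdc20, Cdk1, Kif11, Mki67, Top2a and Ube2c) and 6.13% of all windows. CCAAT stood in 64.7% of replication windows, 93.3% of mitosis windows and 33.8% of all windows. A match describes letters in a window and does not show that a factor binds there.

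The stretches that follow end at the base before the start and belong to genes on which the results turn. Mcm5 and Mcm6 were separated between the cell types in every library, Ccnb2 and Cdk1 were mitosis genes that rose in ILC3, and Ube2c was far higher in 1 ILC3 library. Capitals mark E2F, CHR and CCAAT letters on either strand (ATTGG is CCAAT and TTCAAA is TTTGAA read on the other strand); in Mcm5 and Mcm6 a pair of E2F matches on opposite strands overlaps and reads as 1 run of capitals.
Mcm5 (chr8:75109349-75109508, plus strand): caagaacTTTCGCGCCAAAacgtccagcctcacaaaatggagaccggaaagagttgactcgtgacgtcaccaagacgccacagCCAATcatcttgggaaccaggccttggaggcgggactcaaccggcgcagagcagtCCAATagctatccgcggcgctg
Mcm6 (chr1:128359706-128359825, minus strand): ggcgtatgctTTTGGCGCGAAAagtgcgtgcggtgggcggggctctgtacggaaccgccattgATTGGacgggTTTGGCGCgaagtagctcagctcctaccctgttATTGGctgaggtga
Ccnb2 (chr9:70421555-70421729, minus strand): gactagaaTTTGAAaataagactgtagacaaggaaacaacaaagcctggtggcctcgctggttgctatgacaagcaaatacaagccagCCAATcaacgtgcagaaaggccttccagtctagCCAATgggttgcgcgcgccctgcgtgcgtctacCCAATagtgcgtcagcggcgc
Cdk1 (chr10:69352913-69353052, minus strand): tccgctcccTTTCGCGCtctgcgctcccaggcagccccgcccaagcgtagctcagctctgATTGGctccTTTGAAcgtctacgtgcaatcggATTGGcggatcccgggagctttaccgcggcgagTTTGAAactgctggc
Ube2c (chr2:164769829-164769928, plus strand): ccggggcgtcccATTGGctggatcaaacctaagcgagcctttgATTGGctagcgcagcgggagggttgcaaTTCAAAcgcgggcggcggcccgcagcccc

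Total counts ran from 5903163 to 24794403 in ILC3 and from 4016298 to 18538315 in ILC2. The labelled cell types matched their markers. Of the ILC3 markers, the cytokine Il22 had 313 to 1583 CPM (counts scaled to library size with TMM factors) in ILC3 and 1.06 to 21.9 CPM in ILC2, and the interleukin 23 receptor Il23r had 64.7 to 163 CPM in ILC3 and 0.68 to 7.63 CPM in ILC2. Summed over 6 genes, ILC2 markers such as Gata3 and Il5 had 30.1 to 101 CPM in ILC3 and 1285 to 2586 CPM in ILC2. Markers of other cell types were present too, and in every ILC2 library the plasma cell markers summed far above the ILC2 markers. Plasma cell markers summed to 569 to 4525 CPM in ILC3 and 19398 to 195574 CPM in ILC2, mostly Jchain. Mast cell markers summed to 1463 to 3667 CPM in ILC3 and 143 to 623 CPM in ILC2. Of these, Kit alone had 359 to 925 CPM in ILC3 and 79.5 to 232 CPM in ILC2. The 6 ILC3 markers summed to 840 to 2404 CPM in ILC3, below the mast cell sum in all ILC3 libraries but ZT4 replicate 1. In ILC3, T cell markers summed to 318 to 2621 CPM and myeloid markers to 940 to 2515 CPM. One library, ILC3 ZT23 replicate 2, stood apart: its crypt, epithelial and red cell markers were the highest of the 8 ILC3 libraries, and its common ILC markers (Id2, Il7r, Thy1 and Ptprc) summed to 1397 CPM, against 2197 to 3029 CPM in the other 7, so results that rest on it are given with and without it.

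The first comparison set ILC3 against ILC2 over the 4 times. ILC3 held more transcripts of the division genes: 13 of 38 rose, 34.2%, against 15.1% of the 15339 genes tested, and 37 of 38 had a positive log2 fold change, with a median of 0.83 against 0.11 over all genes. In edgeR's quasi-likelihood test with Benjamini-Hochberg adjustment over all genes, none of the 38 fell, against a background of 12%. No member was lower at an unadjusted p under 0.05, while 23 were higher. Of the 15339 genes tested, 5873 lay under that cutoff in either direction. DESeq2 called 21 members higher and 0 lower, and it called 18.2% of all genes higher. All 38 passed the filter on low counts. In bulk RNA, fewer dividing cells and less RNA per dividing cell cannot be told apart.

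**Figure D1:**
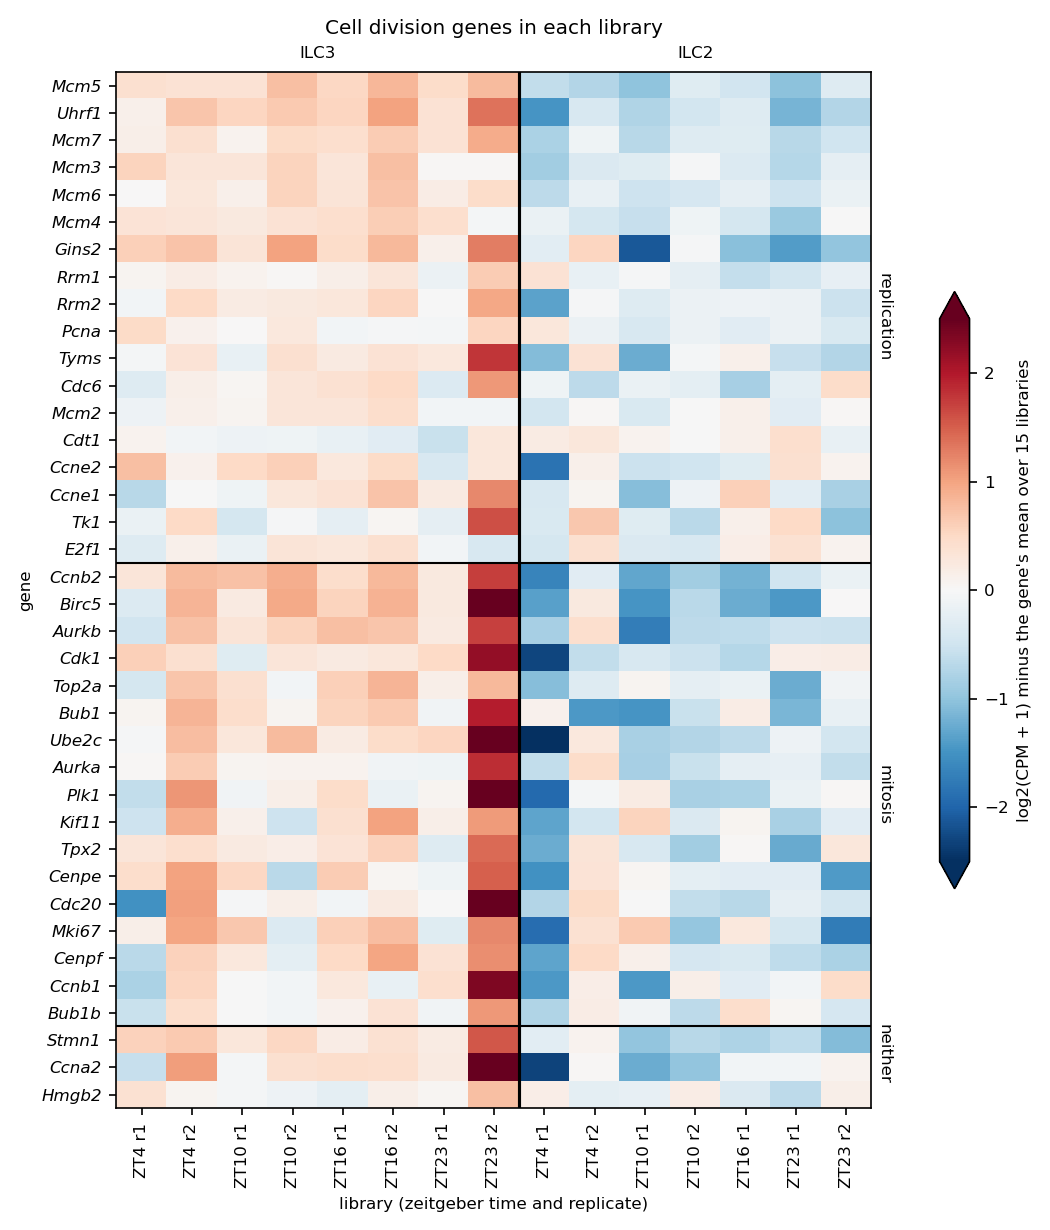
Level of each of the 38 genes (rows, by role, ordered by p of the cell type difference) in the 8 ILC3 and 7 ILC2 libraries (columns), as log2(CPM + 1) minus the gene's mean over the 15 libraries. The ILC3 side is mostly red, and in ILC3 ZT23 replicate 2 (r2) the highest ILC3 level is reached by 16 of 17 mitosis genes and 11 of 18 replication genes.

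Of 18 replication genes, 7 rose in ILC3, the helicase subunits Mcm3, Mcm4, Mcm5, Mcm6 and Mcm7, Gins2 of the GINS complex that activates the helicase, and Uhrf1, which brings the maintenance DNA methyltransferase to newly copied DNA. Mcm5 (Entrez 17218; chromosome 8, 75109468 to 75128439) had 95.2, 105 and 133 CPM at the lowest, median and highest of the 8 ILC3 libraries, against 35.7, 47.8 and 59.8 CPM in the 7 ILC2 libraries. The groups did not overlap, and the log2 fold change was 1.18 ± 0.16 (SE; edgeR adjusted p = 0.000203). Uhrf1 (Entrez 18140; chromosome 17, 56303337 to 56323486) had 24.2, 33.8 and 58.1 CPM in ILC3, against 7.31, 12.8 and 17.4 CPM in ILC2. It was again higher in each ILC3 library than in any ILC2 library (log2 fold change 1.42 ± 0.23; edgeR adjusted p = 0.000746).

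Mcm7 had 60.5, 76 and 109 CPM at the lowest, median and highest ILC3 library, against 32.6, 40.1 and 52.8 CPM in ILC2, and Mcm3 had 77.3, 94.1 and 129 CPM in ILC3, against 41.3, 59.5 and 74.3 CPM in ILC2. Neither overlapped between cell types, although for Mcm3 the lowest ILC3 value (77.3) lay close to the highest ILC2 value (74.3). Their log2 fold changes were 0.91 ± 0.16 for Mcm7 (edgeR adjusted p = 0.00101) and 0.76 ± 0.14 for Mcm3 (edgeR adjusted p = 0.00174). Mcm6 (0.71 ± 0.14), Mcm4 (0.72 ± 0.16) and Gins2 (1.66 ± 0.43) also passed, at edgeR adjusted p of 0.00244, 0.00583 and 0.0135. Mcm4 and Gins2 overlapped between the cell types, and for Gins2 ILC2 spanned 0.497 to 8.45 CPM.

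E2f1, the loading factors Cdc6 and Cdt1 and the cyclin E genes did not pass the edgeR test. Whether they differ from the MCM genes that passed was not tested. E2f1, the transcription factor that activates S phase genes, had 10.7, 14.7 and 19.2 CPM in ILC3, against 10.4, 15.4 and 19.2 CPM in ILC2. The ranges coincided, and the log2 fold change was 0.02 ± 0.20 (edgeR adjusted p = 0.984). Cdt1, a loading factor, was the 1 member with a negative value, at 33.9 ± 5.93 CPM in ILC3 (SD, n = 8) and 40.3 ± 5.43 CPM in ILC2 (SD, n = 7), a log2 fold change of -0.25 ± 0.16 (edgeR adjusted p = 0.27). On the same log2 scale, Cdc6, the partner of Cdt1, had 0.76 ± 0.36, and the cyclin E genes Ccne1 and Ccne2 had 0.53 ± 0.36 and 0.84 ± 0.56. The value of Cdc6 equalled that of Mcm3, which passed with a smaller SE.

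The MCM ring was uneven among its subunits. Mcm2 differed by 0.22 ± 0.13 on the log2 scale (edgeR adjusted p = 0.23), with 72 to 106 CPM in ILC3 and 56.4 to 85.8 CPM in ILC2, while the other 5 subunits passed; whether Mcm2 differs from them was not tested. On a scale per gene length (TPM, length-scaled counts brought to a common library total, with no TMM factors), the order of mean levels in ILC3 was Mcm6 at 102 ± 20.4, Mcm3 at 70.6 ± 16.3, Mcm7 at 66.5 ± 10.5, Mcm5 at 66 ± 9.96, Mcm4 at 55.6 ± 11.3 and Mcm2 at 52.7 ± 11.7 TPM (SD, n = 8). In ILC2 it was Mcm6 at 56.8 ± 11.1, Mcm2 at 40.5 ± 8.47, Mcm3 at 38.5 ± 10.2, Mcm7 at 32.4 ± 6.53, Mcm4 at 31.3 ± 8.35 and Mcm5 at 26.7 ± 7.03 TPM (SD, n = 7). Mcm6 stood above the next subunit by more than 1 SD of either in both cell types, and the other neighbours lay within the larger SD of their pair. Summed over the 6 subunits, ILC3 libraries had 546 to 760 CPM (mean 615 ± 73.4, SD, n = 8) and ILC2 libraries 299 to 421 CPM (365 ± 50.6, SD, n = 7), with no overlap.

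Genes of nucleotide supply and the sliding clamp missed the threshold in edgeR, while DESeq2 called Pcna, Rrm1, Rrm2 and Tyms higher in ILC3. Pcna, the clamp that holds polymerase on DNA, had 131, 143 and 199 CPM in ILC3, against 104, 123 and 166 CPM in ILC2 (log2 fold change 0.36 ± 0.14, edgeR adjusted p = 0.0768). The highest ILC2 value came from ZT4 replicate 1 and lay among the upper ILC3 values. Per length it was the most abundant of the 38 in both cell types, at 248 ± 20.8 TPM in ILC3 (SD, n = 8) and 181 ± 21.1 TPM in ILC2 (SD, n = 7). The ribonucleotide reductase subunits Rrm1 and Rrm2 had log2 fold changes of 0.42 ± 0.15 and 0.70 ± 0.25 (edgeR adjusted p = 0.0529 and 0.056), and thymidylate synthase Tyms 0.81 ± 0.33 (0.0895). Thymidine kinase Tk1 had 8.16, 10.6 and 36.9 CPM in ILC3, against 5.08, 8.95 and 18.7 CPM in ILC2. Those ranges overlapped widely, and the difference was 0.29 ± 0.36 (edgeR adjusted p = 0.592).

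All 17 mitosis genes had positive log2 fold changes, and 5 rose in ILC3. Cyclin B2, Ccnb2 (Entrez 12442; chromosome 9, 70407689 to 70421554), had 13.5, 19.7 and 39.3 CPM in ILC3, against 2.89, 5.71 and 9.83 CPM in ILC2. It was the 1 mitosis gene with no overlap between the cell types (log2 fold change 1.79 ± 0.32, edgeR adjusted p = 0.00118). Birc5, the survivin subunit of the chromosomal passenger complex, had 4.46, 10.3 and 40.8 CPM in ILC3, against 1.49, 1.92 and 7.15 CPM in ILC2 (log2 fold change 1.96 ± 0.52, edgeR adjusted p = 0.0141). Aurkb, the kinase of the same complex, had 3.72, 9.16 and 20.7 CPM in ILC3, against 0.994, 3.23 and 7.88 CPM in ILC2 (1.44 ± 0.40, edgeR adjusted p = 0.0189). In both, the lowest ILC3 library, ZT4 replicate 1, lay below the highest ILC2 library, ZT4 replicate 2.

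Cdk1, the kinase that cyclin B activates, had 7.04, 11.6 and 44.3 CPM in ILC3, against 1.02, 5.82 and 10.2 CPM in ILC2 (1.27 ± 0.36, edgeR adjusted p = 0.0203). Top2a, the topoisomerase that untangles sister chromosomes, had 21.8, 43 and 55.1 CPM in ILC3, against 12.2, 25.6 and 31.6 CPM in ILC2 (0.80 ± 0.25, edgeR adjusted p = 0.0329). The ILC3 and ILC2 ranges overlapped for both. Mki67, the usual marker of cycling cells, had 21.6, 43.4 and 64.2 CPM in ILC3, against 6.63, 19.9 and 44 CPM in ILC2. It spread over a wide range within each cell type and was not called (0.83 ± 0.42, edgeR adjusted p = 0.169).

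The members furthest from the threshold among the mitosis genes were Bub1b and Ccnb1. Bub1b, a spindle checkpoint kinase, had 7.81, 12.4 and 26.5 CPM in ILC3, against 6.63, 11.2 and 16.5 CPM in ILC2 (0.31 ± 0.28, edgeR adjusted p = 0.452). Ccnb1, cyclin B1, had 0.558, 1.95 and 12.6 CPM in ILC3, against 0, 1.57 and 2.71 CPM in ILC2 (0.91 ± 0.75, edgeR adjusted p = 0.409). Ccnb1 had no count in ILC2 ZT4 replicate 1 and ZT10 replicate 1, where 3 counts amount to 0.511 and 0.746 CPM, so levels up to about those values were not detectable there. In ILC2 ZT4 replicate 1, Ccne2, Ube2c and Cenpf were at 0 counts as well. The remaining mitosis genes (Bub1, Ube2c, Plk1, Cenpf, Cenpe, Cdc20, Aurka, Tpx2 and Kif11) had log2 fold changes of 0.77 to 1.56 with SE of 0.34 to 0.68, and did not pass in edgeR. Of these, DESeq2 called Bub1, Ube2c and Plk1 higher in ILC3.

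Of the 3 genes in neither role, Stmn1, which encodes the microtubule-destabilising protein stathmin, rose. It had 22.4, 27.3 and 59.8 CPM in ILC3, against 8.78, 11.8 and 21 CPM in ILC2, with no overlap (1.28 ± 0.22, edgeR adjusted p = 0.00096). Cyclin A2, Ccna2, active in S phase and G2, had 8, 16.8 and 83.4 CPM in ILC3, against 1.7, 11.9 and 13.3 CPM in ILC2 (1.29 ± 0.46, edgeR adjusted p = 0.0556). Hmgb2, a chromatin protein, had 85.2, 106 and 171 CPM in ILC3, against 64.3, 88 and 116 CPM in ILC2 (0.28 ± 0.17, edgeR adjusted p = 0.247). Both overlapped between the cell types, and DESeq2 called Ccna2 higher in ILC3.

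**Figure D2:**
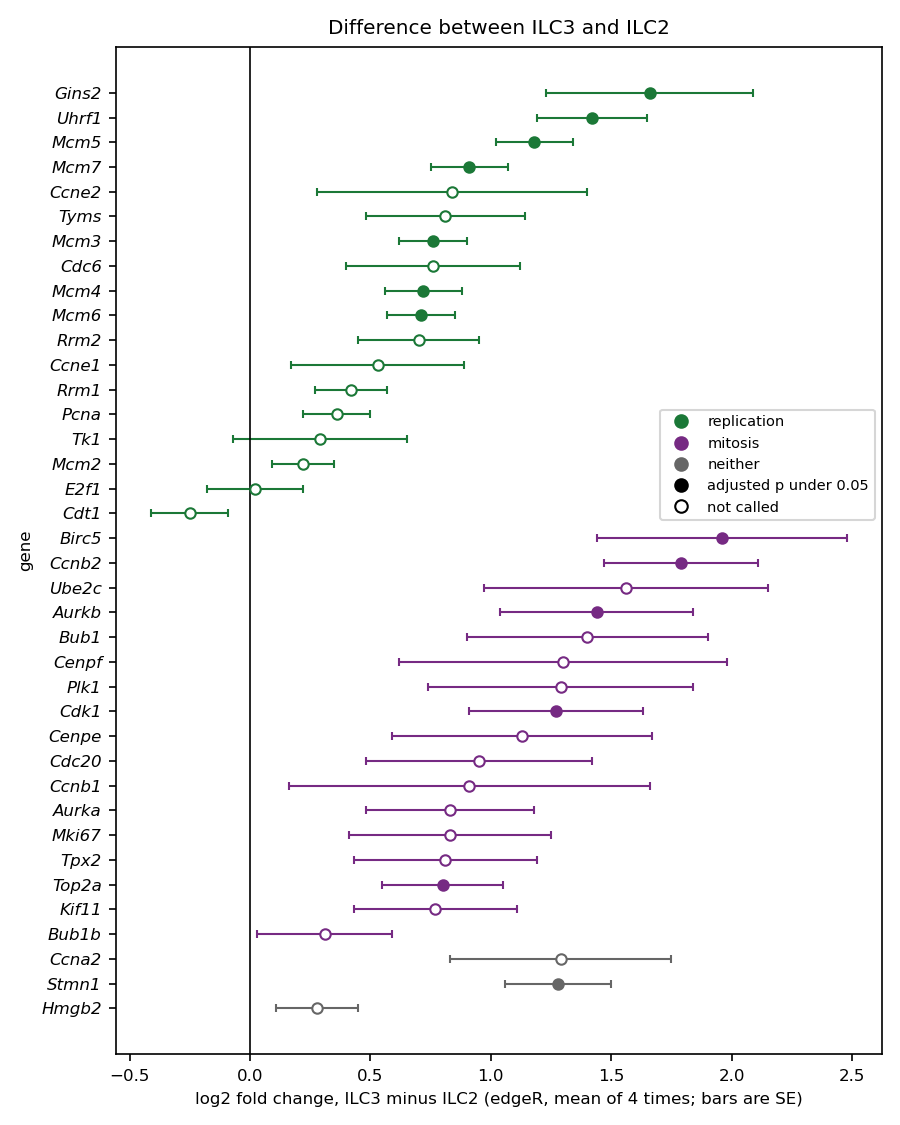
Log2 fold change of ILC3 minus ILC2 for the 38 genes by role (points, with SE bars), with filled points for adjusted p under 0.05. Replication genes that passed lie between 0.71 and 1.66 and mitosis genes that passed between 0.80 and 1.96; the SE is 0.14 to 0.16 for the 5 MCM genes that passed and at least 0.25 for every mitosis gene.

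Set side by side, replication had 7 of 18 called and a median log2 fold change of 0.71, and mitosis 5 of 17 called and a median of 1.13. With ILC3 ZT23 replicate 2 left out, these medians were 0.55 for replication and 0.79 for mitosis. All 8 ILC3 libraries lay above all 7 ILC2 libraries for 5 of 18 replication genes and 1 of 17 mitosis genes, and for 7 of the 38 in all (Mcm3, Mcm5, Mcm6, Mcm7, Uhrf1, Ccnb2 and Stmn1), against 6.51% of the genes tested. As the mean log2(CPM + 1) of its genes, the replication level was 5.05 ± 0.227 in ILC3 (SD, n = 8) and 4.41 ± 0.195 in ILC2 (SD, n = 7). The mitosis level was 3.5 ± 0.616 in ILC3 and 2.53 ± 0.423 in ILC2. The replication levels of the cell types did not overlap, while the mitosis levels did. Pooled within the cell types, the SD was 0.54 for the mitosis level and 0.21 for the replication level. Without ILC3 ZT23 replicate 2, the mitosis level of ILC3 was 3.31 ± 0.317 (SD, n = 7), and the pooled SD was 0.37 for mitosis and 0.18 for replication. The gap of replication over mitosis was 1.55 ± 0.449 in ILC3 and 1.89 ± 0.313 in ILC2, a difference of -0.34 that was not tested. Without ILC3 ZT23 replicate 2, the gap in ILC3 was 1.68 ± 0.265 (SD, n = 7).

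The highest mitosis level was that of ILC3 ZT23 replicate 2. In that library the 17 mitosis genes summed to 565 CPM, against 145 to 283 CPM in the other 7 ILC3 libraries and 55.9 to 169 CPM in ILC2. Relative to the median of the other ILC3 libraries, its mitosis genes were 1.34- to 7.54-fold, with a median of 2.39-fold, and 14 of 17 exceeded 2-fold. Its replication genes were 0.676- to 3.68-fold, with a median of 1.44-fold, and 4 of 18 exceeded 2-fold. Of all genes tested, 26.8% had their highest ILC3 level there. Ccnb1 (7.54-fold), Plk1 (6.95-fold), the Polo kinase, Cdc20 (6.2-fold), the activator of the anaphase-promoting complex, and Ube2c (5.37-fold), its ubiquitin-conjugating enzyme, led. Mcm4 (0.748-fold), Mcm3 (0.829-fold) and Mcm2 (0.877-fold) lay below that median, and the summed MCM level there, 620 CPM, was inside the range of the other ILC3 libraries.

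Markers of other cells were high in the same library. There, all 5 crypt stem and transit cell markers were at their highest (sum 1195 CPM, against 7.81 to 384 CPM in the other ILC3 libraries and 1.87 to 161 CPM in ILC2), led by Olfm4. So were all 6 epithelial markers (sum 2496 CPM, against 184 to 1060 CPM in the other ILC3 libraries and 65.5 to 411 CPM in ILC2) and all 5 red cell markers found (1426 CPM, against 42.6 to 176 CPM in the other ILC3 libraries and 38.6 to 165 CPM in ILC2). Plasma cell markers (4525 CPM, against 569 to 2651 CPM in the other ILC3 libraries) and B cell markers (87.1 CPM, against 19 to 55.7 CPM) were at their highest ILC3 sums there too. The library next in crypt markers among ILC3, ZT4 replicate 2 with 384 CPM, was also next in summed mitosis genes, with 283 CPM. Among ILC2, ZT4 replicate 2 had the highest crypt sum (161 CPM) and the highest mitosis sum (169 CPM), and ZT4 replicate 1 the lowest of both (1.87 and 55.9 CPM). Other libraries did not follow this order: ILC3 ZT16 replicate 2 had a crypt sum of 32.9 CPM with the next mitosis sum, 253 CPM, and ILC2 ZT10 replicate 1 a crypt sum of 19.1 CPM with a mitosis sum of 148 CPM, second among ILC2. In ILC3 ZT4 replicate 1, Ascl2, Smoc2 and Sox9 were at 0, and in ILC2 ZT4 replicate 1, Lgr5, Ascl2, Smoc2 and Sox9 were at 0. Between those 2 libraries, both of low depth, ILC3 had 145 CPM of mitosis genes and 556 CPM of Mcm2 to Mcm7, and ILC2 had 55.9 and 317 CPM. The part of crypt cells, epithelium, red cells, plasma cells and B cells in the mitosis levels was not tested. The ILC3 group also held more of the mast cell list (5 of 5 called higher), the myeloid list (4 of 5) and the T cell list (4 of 6, with 1 lower), and the ILC2 group more of the plasma cell (6 of 6), B cell (3 of 5) and plasmacytoid dendritic cell lists (4 of 4), whose part in the difference was not tested either.

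**Figure D3:**
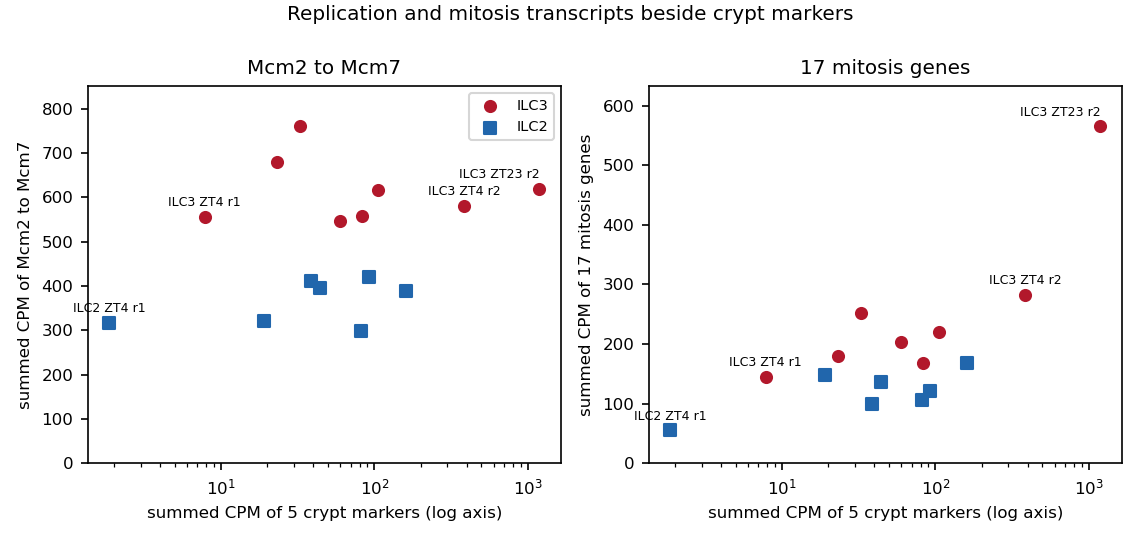
Summed CPM of Mcm2 to Mcm7 (left) and of the 17 mitosis genes (right) in each library, against the summed CPM of 5 crypt markers on a log axis. MCM sums of ILC3 (546 to 760) lie above those of ILC2 (299 to 421), whose crypt sums reach no higher than 161. The mitosis sum reaches 565 in ILC3 ZT23 replicate 2, where the crypt sum is 1195.

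With the 2 ILC3 libraries highest in crypt markers (ZT23 replicate 2 and ZT4 replicate 2) left out, 10 members rose, and all 10 were among the 13. They comprised the same 7 replication genes, Stmn1, Ccnb2 (log2 fold change 1.48, edgeR adjusted p = 0.00303) and Cdk1 (1.01, adjusted p = 0.05 after rounding). Birc5 (1.30, adjusted p = 0.0587), Aurkb (0.95, 0.0827) and Top2a (0.52, 0.129) lost their calls. The medians then lay at 0.48 for replication and 0.52 for mitosis, against 0 over all genes, with 33 of 38 positive. The 2 libraries left out were also the 2 highest of ILC3 in summed mitosis genes, so a lower mitosis median followed from the choice. No ILC2 library was left out, and ILC2 ZT4 replicate 2, with a crypt sum of 161 CPM, stayed in. Mcm5 moved little, to 1.14 (edgeR adjusted p = 0.00086). With each of the 15 libraries left out in turn, 10 of the 13 calls held each time, and 11 to 23 members were called. Aurkb lost its call without ILC3 ZT16 replicate 1 (adjusted p = 0.0508), and Cdk1 without ILC3 ZT10 replicate 2, ILC3 ZT16 replicate 2 or ILC2 ZT10 replicate 2 (up to 0.0567). Top2a kept its call in 5 of the 15 fits (adjusted p up to 0.106). The highest counts came without ILC2 ZT4 replicate 2 (23) and without ILC3 ZT23 replicate 1 (22).

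At single times the tests rested on 2 libraries against 2, or 2 against 1 at ZT16, and called few members. At ZT4 1 member rose, Mcm3 (1.03 ± 0.27, edgeR adjusted p = 0.0346), and none fell, against 4.51% of genes higher and 2.7% lower. At ZT10 1 rose, Mcm5 (1.18 ± 0.30, edgeR adjusted p = 0.0365), and none fell, against 3.77% higher and 2.54% lower. At ZT16 edgeR called 0 members in either direction, against 1.56% higher and 1.72% lower; 8 were higher and 0 lower at an unadjusted p under 0.05, and DESeq2 called Mcm5 higher and none lower. At ZT23 4 rose, Stmn1 (1.97 ± 0.41), Uhrf1 (1.96 ± 0.44), Mcm7 (1.28 ± 0.29) and Mcm5 (1.28 ± 0.30), at edgeR adjusted p of 0.0141 to 0.0238, and none fell, against 3.04% higher and 3.79% lower. At ZT4, ZT10 and ZT23, 0 members were lower at an unadjusted p under 0.05 in edgeR, and DESeq2 called 0 lower. Of all genes tested, 3287 lay under that cutoff in either direction at ZT4, 2634 at ZT10, 2189 at ZT16 and 3385 at ZT23.

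By time, the log2 fold change of Mcm5 was 1.08 ± 0.30 (ZT4), 1.18 ± 0.30 (ZT10), 1.17 ± 0.38 (ZT16) and 1.28 ± 0.30 (ZT23), values that lay within 1 SE of each other. The replication median was 0.46, 0.62, 0.80 and 0.65 over the same times, and the mitosis median 0.91, 0.53, 0.89 and 1.81. Without ILC3 ZT23 replicate 2, the ZT23 medians were 0.41 for replication and 0.65 for mitosis, and no member was called at ZT23. The ZT4 mitosis median was 0.15 without ILC2 ZT4 replicate 1 and 2.25 without ILC2 ZT4 replicate 2.

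Whether the division genes changed over the day was asked within each cell type, where all libraries share a batch. In edgeR, 0 of 38 passed the F-test over the 4 times in ILC3, in ILC2 or for the interaction of cell type and time, against a background of 0% of all genes in each. No member had an unadjusted p under 0.05, and DESeq2 also called 0 members. Of all genes, 669 (4.36%) had one in ILC3, 516 (3.36%) in ILC2 and 307 (2%) for the interaction. With shares this low, few of 38 genes would fall below that cutoff, so the members are not set apart. The contrast of ZT16 and ZT23 minus ZT4 and ZT10 called 0 members, and 0% of all genes, in either direction in ILC3 and in ILC2. Again 0 members had an unadjusted p under 0.05, against 5.12% of all genes in ILC3 and 3.9% in ILC2. DESeq2 called 0 members.

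Cdk1 came nearest in the test over time in ILC3 (unadjusted value 0.0813, edgeR adjusted p = 0.965). Its ZT4 replicates had 14 and 12 CPM, ZT10 replicates 7.04 and 11.2, ZT16 replicates 10.6 and 11, and ZT23 replicates 12.9 and 44.3. One ZT23 replicate lay within the range of the other times and one far above it. In ILC2, Cdk1 had 1.02 and 5.44 CPM in the ZT4 replicates, 6.46 and 5.82 in those of ZT10, 5.07 in the ZT16 library, and 10.1 and 10.2 in those of ZT23. Both ZT23 libraries were the highest of the 7, but the test over time did not pass (unadjusted value 0.177, edgeR adjusted p = 1).

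Stmn1 had the smallest p over time in ILC2 (0.166, edgeR adjusted p = 1), with ZT4 replicates at 16.2 and 21 CPM, ZT10 replicates at 9.44 and 11.8, the ZT16 library at 11.1, and ZT23 replicates at 12.3 and 8.78. The ZT4 libraries were the highest. In ILC3 its ZT4 replicates had 30 and 31.6 CPM, ZT10 replicates 24.3 and 28.7, ZT16 replicates 22.4 and 25.9, and ZT23 replicates 22.7 and 59.8, of which one was near the lowest and one the highest. Tyms had the smallest p for the interaction (0.219, edgeR adjusted p = 1). In ILC3, ZT4 replicates of Tyms had 12.5 and 16.7 CPM, ZT10 replicates 11.4 and 17.6, ZT16 replicates 15.4 and 17, and ZT23 replicates 15.9 and 47.6. In ILC2, ZT4 replicates had 5.61 and 16.9 CPM, ZT10 replicates 4.97 and 12.6, the ZT16 library 14.4, and ZT23 replicates 8.45 and 7.46. Replicates of ZT4 and ZT10 in ILC2, and of ZT23 in ILC3, lay far apart.

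Cyclin E1, Ccne1, came nearest to a late rise in ILC3 (late minus early 0.94 ± 0.48 on the log2 scale, unadjusted value 0.0721, edgeR adjusted p = 0.948). Its ZT4 replicates had 1.86 and 3.65 CPM, ZT10 replicates 3.3 and 4.64, ZT16 replicates 5.01 and 6.64, and ZT23 replicates 4.42 and 9.73, with a slight overlap of late and early libraries. Rrm1 came nearest in ILC2 (late minus early -0.47 ± 0.22, unadjusted value 0.0559, edgeR adjusted p = 1). Its ZT4 replicates had 109 and 74.7 CPM, ZT10 replicates 83.3 and 72.6, the ZT16 library 55.7, and ZT23 replicates 61.1 and 73.7, so late and early libraries overlapped here as well.

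The role medians of the late minus early contrast in ILC3 turned on the same library. All 17 mitosis genes and 14 of 18 replication genes had positive values, with medians of 0.64 and 0.17, against 0 over all genes. Without ILC3 ZT23 replicate 2, 7 of 17 and 9 of 18 were positive, with medians of -0.06 and 0.01. In ILC2, 11 of 17 mitosis genes and 11 of 18 replication genes were positive, with medians of 0.04 and 0.08; without ILC2 ZT4 replicate 1 the medians were -0.21 and -0.04, and without ILC2 ZT4 replicate 2 they were 0.65 and 0.24.

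**Figure D4:**
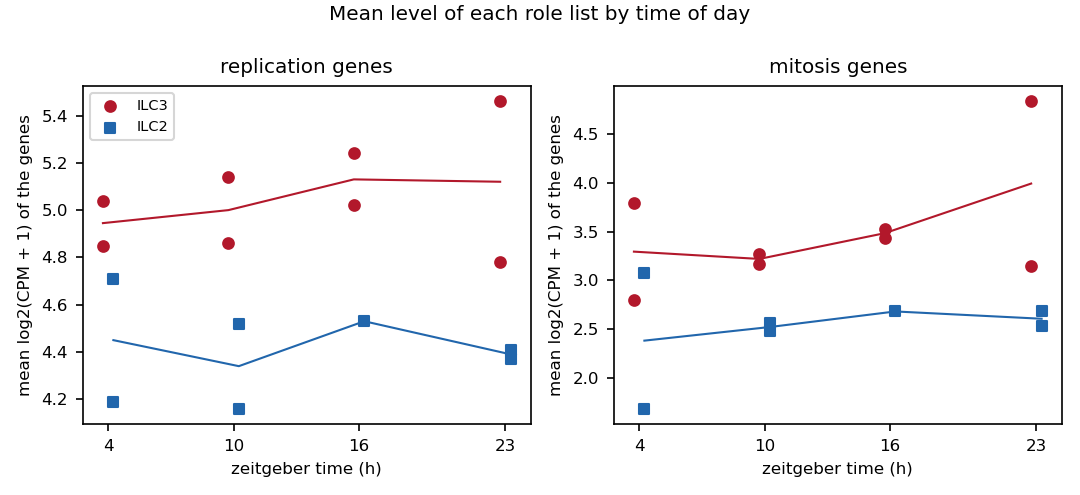
Mean log2(CPM + 1) of the replication genes (left) and mitosis genes (right) in each library by zeitgeber time, with lines through the group means; ILC2 has 1 library at ZT16. Replication levels of ILC3 (4.78 to 5.46) lie above those of ILC2 (4.16 to 4.71) at all 4 times, and the 2 mitosis levels at ZT23 in ILC3, 3.15 and 4.84, lie far apart.

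Other genes of the pathway, outside the 38, were read for context. Of 38 further replication genes, 10 rose in ILC3 (26.3%, against 15.1% of all genes) and 1 fell (2.63%, against 12% of all genes), Orc4, a subunit of the origin recognition complex. Their median log2 fold change was 0.48, against 0.11 over all genes. The 4 with the smallest p were Pola1 of DNA polymerase alpha (1.13 ± 0.20), Slbp, which binds histone mRNA (0.51 ± 0.12), Rfc5 of the clamp loader (0.59 ± 0.15) and the replication initiation gene Mcm10 (1.57 ± 0.40). Of 38 further mitosis genes, 14 rose (36.8%, against 15.1% of all genes) and 1 fell (2.63%, against 12%), with a median of 1.09. The smallest p belonged to the 1 that fell, Kif23, a kinesin of the midbody, with 14.9 ± 4.33 CPM in ILC3 (SD, n = 8) and 47.6 ± 9.84 CPM in ILC2 (SD, n = 7), a log2 fold change of -1.64 ± 0.22 (edgeR adjusted p = 0.000156). The next were Cks2 (1.55 ± 0.31) and Cks1b (1.17 ± 0.26), small subunits bound by Cdk1, and Cenpa, the centromeric histone (1.00 ± 0.23).

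Genes that control entry into the cycle were read in the same way. Of 32 genes of G1 and CDK control, 1 rose in ILC3 (E2f8, 1.27 ± 0.44) and 4 fell, with a median of 0.07. The share that fell, 12.5%, was near the 12% of all genes, and the share that rose, 3.12%, was below the 15.1% of all genes. Those lower in ILC3 were Mxd1, an antagonist of Myc (-0.70 ± 0.13), the retinoblastoma gene Rb1 (-0.55 ± 0.15) and the repressor E2F genes E2f4 (-0.42 ± 0.13) and E2f6 (-0.46 ± 0.16). Mxd1 had 233 ± 47.8 CPM in ILC3 (SD, n = 8) and 380 ± 55.9 CPM in ILC2 (SD, n = 7), with an edgeR adjusted p of 0.0013. With library size as the scaling in place of TMM, the split of all genes was 2981 higher and 1315 lower, against 2318 and 1839 in the fit given here, and 18 of the 38 rose.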

How the data were processed

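The authors deposited raw read counts per gene for each library, whole numbers under Entrez identifiers with gene lengths. Per the submitters' processing notes, featureCounts and mm10 were used. How reads were aligned, whether strand was used and how multi-mapping reads were handled is not given in the sources used here. Of 22797 genes, 22718 were named through RefSeq's GRCm38.p6 table, and 8 members overlap another counted gene (Ccne2, E2f1, Mcm7, Gins2, Tk1, Aurka, Cdc20 and Ccna2), whose reads could be shared.

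Groups follow the cell type and hour of each library's labels. Replicates of a group differed by more than sampling noise (chi-square per degree of freedom 22 to 229). The filter filterByExpr (minimum count 10) kept 15339 genes. Counts were scaled by TMM and fitted in edgeR 4.0.16 (R 4.3.3) by quasi-likelihood on 8 group means over 15 libraries (7 residual degrees of freedom, common biological coefficient of variation 0.425). Adjusted p-values are Benjamini-Hochberg over the 15339 genes (threshold 0.05). Standard errors of log2 fold changes are from that fit. Role levels are means of log2(CPM + 1). Floors of 3 counts cover counting error only. The fits were tested on simulated data.

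Members and lists were chosen with earlier results of these data known. By rule, values are given for the 4 smallest and 2 largest p of each role, Mki67, Pcna and the smallest p of each test of time, and for the 4 smallest p of each further list; Orc4, E2f8 and the other members named were added after their values were seen. Alternatives were RLE factors, library size only, no filter, Jchain left out (for immunoglobulin genes), DESeq2 1.42.0, a replicate block, a pseudocount of 0.1, changed role lists and libraries left out. Promoters came from RefSeq (GRCm38.p6).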

Additional observations from a re-analysis of the deposited data

Results flagged for a closer look

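In 20 cases the highest library of a cell type stood far from the others, by the gap to its nearest neighbour divided by the whole range of the group. The cutoff is one that about 1 of 20 groups of normally distributed values would pass, and CPM values need not be so distributed. In ILC3, ZT23 replicate 2 was the library that stood out in 17 cases, which are not independent since they share that library. It held the highest ILC3 level of 26.8% of all genes tested, and the share of all genes past the cutoff was not determined. As shares of the range, the gaps for mitosis genes were Ccnb1 0.804, Ccnb2 0.671, Cdk1 0.815, Bub1 0.712, Bub1b 0.534, Birc5 0.782, Aurka 0.769, Aurkb 0.624, Plk1 0.731, Cdc20 0.681, Tpx2 0.634 and Ube2c 0.872. For replication genes they were Cdc6 0.534, Tyms 0.828 and Tk1 0.709. For genes in neither role they were Ccna2 0.749 and Stmn1 0.756. The same library was the highest ILC3 library in crypt, epithelial, red cell, plasma cell and B cell markers, whose part in these levels was not tested. The widest gap was that of Ube2c, at 68.4 CPM against 16.4 CPM in the next ILC3 library.

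In ILC2, Pcna was highest in ZT4 replicate 1 (166 CPM, against 123 CPM in the next library), with a gap of 0.688 of the range. In ILC2 ZT4 replicate 2, Aurka had 9.26 CPM, against 5.55 CPM in the next library (gap 0.615), and Aurkb 7.88 CPM, against 3.62 CPM (gap 0.618).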

How the results depend on the processing

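The direction of every called member held under all alternatives run. Over the 4 times, 13 members rose. DESeq2 called 21, library size only 18, no filter 18, and RLE factors and the table without Jchain 13 each. The replicate block, averaged over ZT4, ZT10 and ZT23, called 17. All of these included the 13. Library size as the scaling gave a median log2 fold change of 0.26 over all genes and 0.98 over the 38, against 0.11 and 0.83 with TMM. At ZT4 1 rose, against 2 with RLE factors, library size only or no filter, 4 with DESeq2 and 3 with the replicate block; at ZT10 1 rose, against 2 with no filter, 4 with DESeq2 and 5 with the replicate block; at ZT16 0, against 1 with DESeq2; at ZT23 4, against 8 with DESeq2. Leaving out 1 library gave 11 to 23 members over the 4 times, 0 to 4 at ZT4, 0 to 3 at ZT10 and 0 to 7 at ZT23, and mitosis medians of 0.79 to 1.68. These causes were not tested.

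Chosen after seeing the data, leaving out the 2 ILC3 libraries highest in crypt markers gave 3 members at ZT10, 0 at ZT23, medians of 0.48 for replication and 0.52 for mitosis, and a difference of the role gap between ILC3 and ILC2 of -0.13, against -0.34 over all libraries and -0.41 to -0.21 with 1 library left out; leaving out the 3 shallowest libraries (ILC3 ZT4 replicate 1, ILC2 ZT4 replicate 1 and ILC2 ZT10 replicate 1) gave 15 members over the 4 times, 0 at ZT4, 0 at ZT10 and 7 at ZT23. The replicate block left out the ILC2 ZT16 library, which also has no stand-in when left out, so neither gave a ZT16 comparison. In both, the difference over the times was the mean of ZT4, ZT10 and ZT23. Where leaving out a library left 1 in a group, that library was assumed to vary like the other groups. The replicate numbers showed no consistent pairing of the samples. Over 21 pairs of groups, same-numbered libraries deviated together with correlations of -0.16 to 0.45 (median 0.03), 6 of them over 0.1. Whether same-numbered libraries of some groups share a pool or run is not known. At ZT16 the ILC2 library has no replicate, and members of low level, such as Ccnb1 and Cenpf, rest on few counts in the shallow libraries.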
